A study of Rattus norvegicus with 5 samples.

Results

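The pigment cell genes are 10 genes with a known role in melanin-making cells: Tyr, Tyrp1, Dct, Pmel, Mlana, Slc45a2, Slc24a5, Oca2, Trpm1 and Mitf. They were proposed with results of these corneas known. Of the 20339 genes in the table, 9 of the 10 were found by symbol and all 9 passed the filter on low counts. No row in the gene or the isoform table carried the symbol Dct, so its level was not analysed here. Corneas came from male Sprague-Dawley rats of 6 months, each library being taken as 1 rat: 3 wild-type libraries (WT1 to WT3) and 2 libraries of transgenic P1 hMR rats (TG1 and TG2), whose transgene is human NR3C2, the gene of the mineralocorticoid receptor. No treatment is named for either group, and the promoter that drives the transgene, the number of founder lines and whether the rats shared litters are not given in the sources used here. Nothing in the labels marks a shared origin, so p-values measure only the spread between these libraries. Human NR3C2 had 0 counts in WT1, WT2 and WT3, 1094 in TG1 and 1146 in TG2, which matched the labels. Library totals ran from 20874010 to 30449675 counts.

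Melanin is made in the melanosome, an organelle related to the lysosome, from tyrosine by Tyr and the related enzymes Tyrp1 and Dct on a scaffold of Pmel fibrils. The transcription factor Mitf switches these genes on in melanocytes, which come from the neural crest, and in the pigmented epithelia of the retina, iris and ciliary body, which come from the optic cup. A healthy cornea is clear and holds few pigment cells away from the limbus, its rim. Sprague-Dawley rats are albino through a variant in Tyr, so their pigment cells can express these genes while making little or no melanin.

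Mitf binds an E-box motif known as the M-box, with the core TCATGTG, in the promoters of several pigment genes. RefSeq start-site windows of build GRCr8 (250 bases before the annotated start and 50 after it) were found for 8 of the 10 genes; Slc45a2 and Slc24a5 had no entry. The windows of Tyr, Tyrp1, Dct and Mlana held TCATGTG on either strand, 4 of 8, against 3.56% of 33469 windows of the same length. The shorter CATGTG, which lies inside TCATGTG, was in the same 4 windows and in 14.0% of all windows; the E-box CACGTG was in 0 of 8 and in 6.42% of all. The M-box is known from promoters of pigment genes, so its share in these windows is no independent result. The match is a description of letters and no measure of binding. The 4 windows are shown because they hold TCATGTG, and no motif beyond those named here was sought. Each runs 5′ to 3′ on the gene's strand, with TCATGTG or its reverse complement in capitals. They lie at chr1:150622808-150623107 (minus strand) for Tyr, chr5:100326875-100327174 (plus) for Tyrp1, chr15:101507980-101508279 (minus) for Dct and chr1:236882825-236883124 (plus) for Mlana.
Tyr: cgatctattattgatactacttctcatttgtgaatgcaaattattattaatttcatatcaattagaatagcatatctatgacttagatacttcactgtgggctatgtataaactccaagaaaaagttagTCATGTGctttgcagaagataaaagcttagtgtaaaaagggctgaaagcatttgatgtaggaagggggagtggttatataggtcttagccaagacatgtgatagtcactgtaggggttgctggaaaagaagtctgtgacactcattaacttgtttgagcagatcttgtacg
Tyrp1: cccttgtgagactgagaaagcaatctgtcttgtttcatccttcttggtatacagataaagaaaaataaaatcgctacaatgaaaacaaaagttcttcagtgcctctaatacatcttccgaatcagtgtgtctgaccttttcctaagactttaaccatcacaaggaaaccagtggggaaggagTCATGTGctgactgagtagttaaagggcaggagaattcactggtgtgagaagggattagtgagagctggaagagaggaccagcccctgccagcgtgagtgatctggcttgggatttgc
Dct: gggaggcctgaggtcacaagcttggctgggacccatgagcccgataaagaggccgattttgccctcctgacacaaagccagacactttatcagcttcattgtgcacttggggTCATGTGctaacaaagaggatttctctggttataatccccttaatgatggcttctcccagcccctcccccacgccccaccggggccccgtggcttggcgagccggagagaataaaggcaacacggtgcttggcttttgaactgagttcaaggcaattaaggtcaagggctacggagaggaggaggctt
Mlana: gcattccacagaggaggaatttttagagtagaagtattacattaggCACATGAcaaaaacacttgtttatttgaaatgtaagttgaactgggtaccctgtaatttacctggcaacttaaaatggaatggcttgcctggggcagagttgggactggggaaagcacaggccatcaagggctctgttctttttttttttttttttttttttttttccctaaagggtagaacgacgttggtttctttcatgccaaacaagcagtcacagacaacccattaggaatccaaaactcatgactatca
The capitals begin 121 bases before the annotated start in Tyr, 68 before it in Tyrp1 and 138 before it in Dct, on the gene's own strand in these 3 melanin enzyme genes. In Mlana they begin 204 bases before the start and read on the opposite strand.

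Pigment cell genes were low in every cornea and differed widely between corneas. Their 9 rows together took 270.3 counts of WT2, 896.2 of WT3, 1490.5 of WT1, 2452 of TG1 and 5448 of TG2. Scaled to a common library total (CPM, the scaled count used from here on), the sums were 53.8, 13.2 and 40.8 CPM in WT1, WT2 and WT3 and 94.5 and 173 CPM in TG1 and TG2. Both transgenic corneas lay above all 3 wild-type ones, and TG2 was 13.1-fold above WT2. The sum stayed at 0.0179% of counts or less. In a whole-tissue library, more pigment cells and more pigment RNA per cell cannot be told apart.

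**Figure D1:**
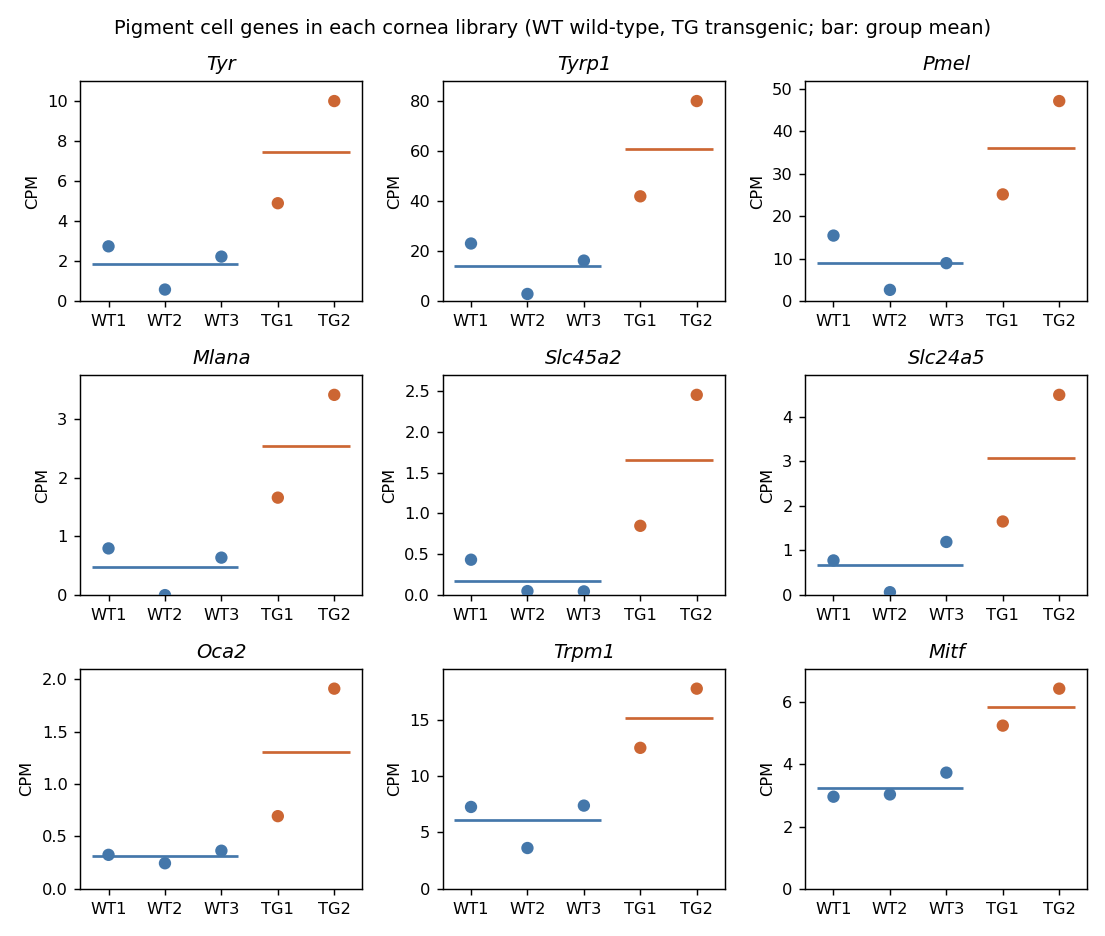
CPM (vertical axis, linear from 0) of the 9 pigment cell genes in each library; each point is 1 cornea (blue wild-type, orange transgenic) and bars are group means. TG2 is the highest library in all 9 panels, and WT2 is the lowest in 7.

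The melanin enzymes came first in this order. Tyr, the enzyme of the first and rate-limiting step, had 2.74, 0.587 and 2.23 CPM in WT1, WT2 and WT3 and 4.90 and 9.996 CPM in TG1 and TG2. Its groups did not overlap, WT2 being low and TG2 high within their genotypes. Group means were 1.85 ± 1.13 CPM (SD, n = 3) in wild-type and 7.45 ± 3.61 CPM (SD, n = 2) in transgenic corneas, a log2 fold change of 1.98 ± 0.60 (SE). Tyrp1, which acts later in the same pathway and steadies Tyr, had 23.1, 2.94 and 16.3 CPM in WT1, WT2 and WT3 and 41.9 and 79.9 CPM in TG1 and TG2. Between the 3 wild-type corneas alone Tyrp1 differed 7.86-fold, from WT2 to WT1, more than the 4.32-fold difference between group means. Its log2 fold change was 2.10 ± 0.89.

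Structural proteins of the melanosome followed the enzymes. Pmel, whose fragments form the fibrils on which melanin is laid down, had 15.5, 2.69 and 8.97 CPM in WT1, WT2 and WT3 and 25.1 and 47.1 CPM in TG1 and TG2. The log2 fold change of Pmel was 1.98 ± 0.78. Mlana, a melanosomal membrane protein that Pmel maturation needs, had 0.794, 0 and 0.637 CPM in WT1, WT2 and WT3 and 1.66 and 3.41 CPM in TG1 and TG2. WT2 held 0 Mlana counts, which allows up to 0.147 CPM (3 counts); against that floor TG2 was at least 23.2-fold and TG1 at least 11.3-fold higher than WT2. Both melanosomal proteins kept the order of Tyr and Tyrp1: WT2, WT3, WT1, TG1, TG2.

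For transporters of the melanosome, as for Mlana, single wild-type values rest on few reads. Slc24a5, a cation exchanger, had 0.777, 0.0656 and 1.19 CPM in WT1, WT2 and WT3 and 1.65 and 4.49 CPM in TG1 and TG2. Slc45a2, a transporter that influences melanosome pH, had 12, 1 and 1 counts in WT1, WT2 and WT3 and 22 and 77 in TG1 and TG2. A single count has an exact 95% Poisson interval of 0.0253 to 5.57 counts (counting error only), so WT2 and WT3 cannot be ordered for Slc45a2. Oca2, a melanosomal protein needed for chloride conductance, had 9, 5 and 8 counts in the wild-type corneas, against 18 in TG1 and 60 in TG2. Log2 fold changes were 2.16 ± 0.87 for Slc24a5, 3.09 ± 0.84 for Slc45a2 and 2.05 ± 0.56 for Oca2. Oca2 passed the filter through the transgenic libraries alone, and Slc45a2 reached its minimum of 0.381 CPM in 1 wild-type library, so entry into the test favoured a higher transgenic level for these 2 genes.

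Trpm1 and Mitf varied least between corneas of 1 genotype among the more deeply counted members. Trpm1, a cation channel of melanocytes and of retinal ON bipolar cells, had 7.26, 3.62 and 7.38 CPM in WT1, WT2 and WT3 and 12.5 and 17.7 CPM in TG1 and TG2. Its log2 fold change was 1.31 ± 0.31. Mitf, the regulator, had 2.96, 3.03 and 3.73 CPM in WT1, WT2 and WT3 and 5.24 and 6.43 CPM in TG1 and TG2. WT2, the low library for Tyr, Tyrp1 and Pmel, was not low for Mitf, and the 2 genotypes did not overlap. The log2 fold change of Mitf was 0.85 ± 0.24, a 1.80-fold ratio of means and the smallest among the 9 genes.

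None of these differences passed the test across all genes. By edgeR's quasi-likelihood test with Benjamini-Hochberg adjustment over 13304 genes, 0 of 9 members had an adjusted p below 0.05, and their adjusted p ran from 0.492 (Oca2 and Trpm1) to 0.829 (Tyrp1). In all genes tested 0.00752% were called, 1 gene, the human NR3C2 transgene. At an unadjusted p below 0.05, 7 of 9 members were higher, where 4.39% of genes were (1.93% were lower); Tyrp1 and Pmel were the exceptions. DESeq2 called 1 member, Trpm1 (DESeq2 adjusted p = 0.0339), beside 0.256% of genes called higher, and limma voom called 0. The fitted fold change was above 0 in 9 of 9 members (48.2% of genes tested) and above 1 in 8 (1.82%). In 9 of 9 the lower transgenic cornea exceeded the highest wild-type one (12.0% of genes). Among the 7 members that pass the filter in wild-type libraries alone, these counts were 7, 6 and 7 of 7, and 5 of 7 had an unadjusted p below 0.05. The median log2 fold change of the 9 was 2.05, beside -0.01 over all genes tested. Without TG2 the number with an unadjusted p below 0.05 fell from 7 to 1 of 9; without WT1, WT2, WT3 or TG1 it was 7, 9, 5 or 6. Since the members were proposed with results of these corneas known, these counts are descriptions.

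**Figure D2:**
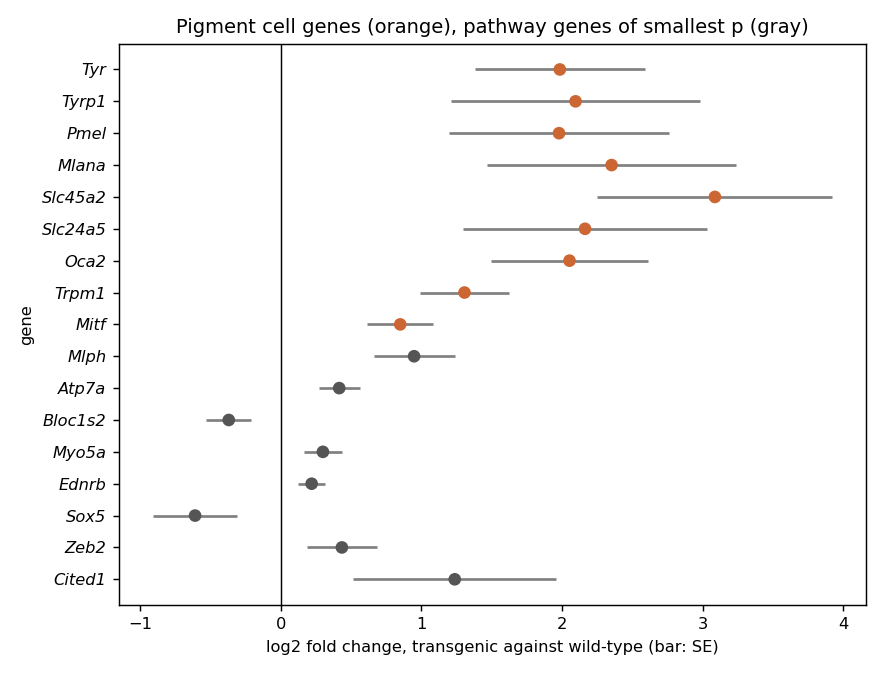
Log2 fold change of transgenic against wild-type corneas (horizontal axis; points are edgeR estimates, bars 1 SE) for the 9 pigment cell genes in orange and 8 other pathway genes in gray. All 9 members lie above 0, from 0.85 for Mitf to 3.09 for Slc45a2, and no gene shown passed the threshold.

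Most members also differed widely between corneas of the same genotype. On the log2(CPM + 0.5) scale, the range over the 3 wild-type corneas was 2.78 for Tyrp1, and 0.150% of tested genes had a range as large. It was 2.32 for Pmel (0.293% of genes), 1.58 for Slc24a5 (1.01%), 1.58 for Tyr (1.03%) and 1.37 for Mlana (1.49%). A range of at least 1 was seen in 5 of 9 members and in 4.06% of all genes. Mitf was in the middle of all genes, with a range of 0.29 (47.7% of genes had at least that), and Oca2, the gene with the fewest wild-type counts after Slc45a2, had 0.21 (63.5%). Trpm1 lay between them and the enzymes, at 0.93 (5.02%). Slc45a2 had a range of 0.77 (8.55%). Slc45a2 and Oca2 lay below the pseudocount of 0.5 CPM in every wild-type cornea, which narrows their ranges on this scale.

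TG2 stood above TG1 in each member. On the log2(CPM + 0.5) scale TG2 minus TG1 was at least 1 in 3 of 9 members and in 1.07% of all genes, and in 1 of the 7 members that pass the filter in wild-type libraries alone. It was 1.21 for Slc24a5 (0.549% of genes tested had at least that), 1.13 for Slc45a2 (0.722%) and 1.01 for Oca2 (1.03%). Enzymes and structural proteins were close to each other, at 0.96 for Tyr, 0.92 for Tyrp1, 0.89 for Pmel and 0.86 for Mlana, where 1.28% to 1.902% of genes had at least as much. For Trpm1 it was 0.49 and for Mitf 0.27, with 7.38% and 16.7% of genes at or above. TG2 was the highest of the 5 corneas in 9 of 9 members (23.1% of genes), and WT2 was the lowest in 7 of 9 (23.9%). The exceptions were Slc45a2, lowest in WT3 on 1 count, and Mitf, lowest in WT1.

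**Figure D3:**
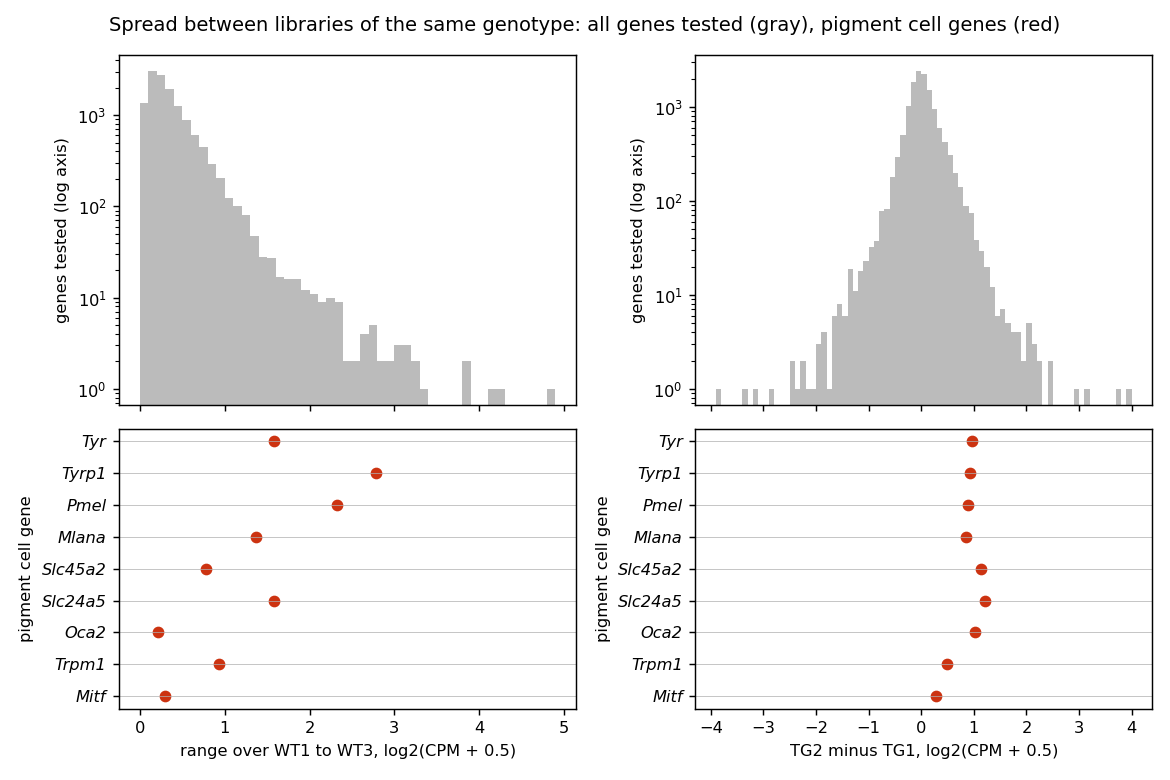
Top: number of tested genes (log axis) by the range over the 3 wild-type corneas (left) and by TG2 minus TG1 (right), in log2(CPM + 0.5). Bottom: the 9 pigment cell genes on the same axes; Tyrp1 and Pmel stand far right on the left side, at 2.78 and 2.32, and all 9 are above 0 on the right.

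Outside WT2, enzymes and structural proteins stood in nearly fixed proportion to each other. As a percent of the Tyrp1 CPM, Tyr stood at 11.9% in WT1, 13.7% in WT3, 11.7% in TG1 and 12.5% in TG2. WT2 gave 20% on 12 Tyr and 60 Tyrp1 counts. Taken as a share of Tyr plus Tyrp1 counts, WT2 had 16.7% (95% exact binomial interval 8.92% to 27.3%, counting error only) and TG2 11.1% (9.98% to 12.3%), so the intervals overlap. Pmel stood at 67.0%, 91.7% and 55.2% of Tyrp1 in WT1, WT2 and WT3 and at 60.0% and 58.9% in TG1 and TG2. As a share of Pmel plus Tyrp1 counts, WT2 had 47.8% (38.4% to 57.3%) and TG2 37.1% (35.6% to 38.6%). Those intervals overlap only at their ends. Mlana stood at 3.44% in WT1, 3.92% in WT3, 3.96% in TG1 and 4.26% in TG2, with 0 counts in WT2. The Tyrp1 level itself differed 27.2-fold between WT2 and TG2, while the Tyr percentage differed 1.71-fold and the Pmel percentage 1.66-fold over the 5 libraries.

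Mitf, Trpm1 and the transporters did not keep that proportion. Mitf was 12.8%, 103% and 23.0% of Tyrp1 in WT1, WT2 and WT3 and 12.5% and 8.04% in TG1 and TG2, a 12.8-fold span. Trpm1 was 31.5%, 123% and 45.4% in the wild-type corneas and 29.8% and 22.2% in the transgenic ones. As a share of Trpm1 plus Tyrp1 counts, Trpm1 had 55.2% in WT2 (46.4% to 63.8%) and 18.2% in TG2 (16.8% to 19.6%), intervals that do not overlap. Mitf and Trpm1 were thus present in WT2, the cornea with the fewest melanin enzyme reads, at levels out of proportion to Tyrp1. The transporters, on fewer counts, were also uneven: Slc45a2 ran from 0.28% of Tyrp1 in WT3 to 3.07% in TG2, Oca2 from 1.41% in WT1 to 8.33% in WT2, and Slc24a5 from 2.23% in WT2 to 7.33% in WT3. Which cells hold the Mitf and Trpm1 reads of WT2 was not tested.

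**Figure D4:**
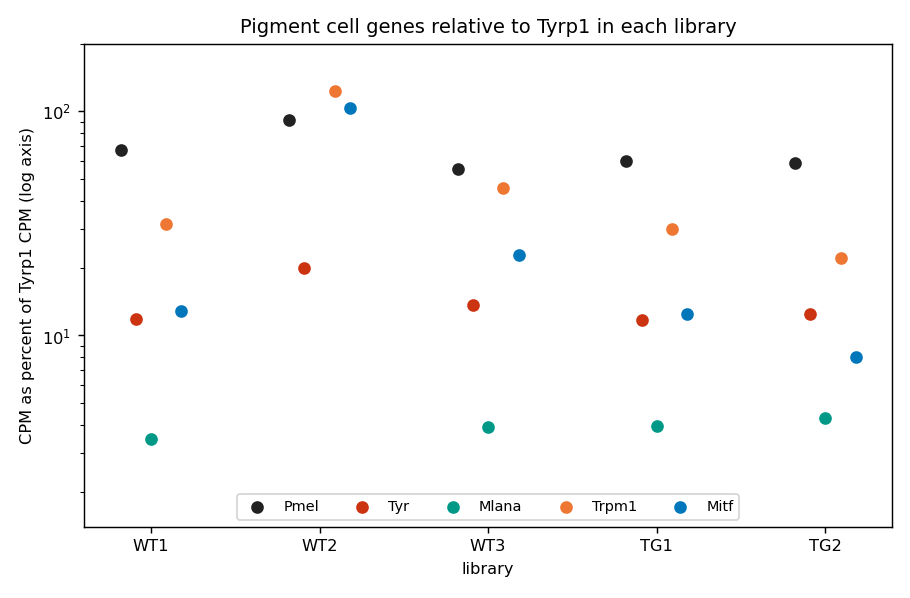
CPM of 5 pigment cell genes as a percent of the Tyrp1 CPM (vertical log axis) in each library; 1 point is 1 gene in 1 cornea, and Mlana in WT2, at 0, is not drawn. Tyr, Pmel and Mlana keep to narrow bands (11.7% to 13.7%, 55.2% to 67.0% and 3.44% to 4.26% outside WT2), while Mitf runs from 103% in WT2 to 8.04% in TG2.

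The rest of the melanosome machinery was spread around 0 in this comparison. The list of 35 other melanosome genes, most of which also serve lysosomes and related organelles in other cells, had 33 tested genes, 15 higher and 18 lower in transgenic corneas. The median of their log2 fold changes was -0.02, and 0 were called by edgeR (2 higher and 1 lower at an unadjusted p below 0.05). DESeq2 and limma voom also called 0. Its mean per library stayed between -0.01 and 0.05 of the wild-type mean in log2 units, while the mean of the members ran from -0.75 in WT2 to 2.03 in TG2. The 4 genes of smallest p were Mlph, Atp7a, Bloc1s2 and Myo5a. Mlph and Myo5a encode the adaptor and motor that carry melanosomes along actin. Mlph had 6.54, 6.36 and 9.43 CPM in WT1, WT2 and WT3 and 10.1 and 18.5 CPM in TG1 and TG2, without overlap (log2 fold change 0.95 ± 0.29). Myo5a had 22.2, 17.8 and 20.8 CPM and then 26.9 and 23.1 CPM. Atp7a, which supplies copper to Tyr, had a log2 fold change of 0.42 ± 0.15, and Bloc1s2, a subunit of the complex that sorts melanosomal cargo, one of -0.37 ± 0.16. Gpnmb, a relative of Pmel that macrophages also make, had a log2 fold change of -0.12 ± 0.10. Gpr143, of the same list, had 0.650, 0.636 and 0.319 CPM in WT1, WT2 and WT3. In TG1 and TG2 Gpr143 had 0.347 and 0.700 CPM, a log2 fold change of -0.02 ± 0.58. Both Gpnmb and Gpr143 were picked after their values were seen.

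Among 28 regulators and receptors of pigment cells, 22 were tested, 16 higher and 6 lower. Their log2 fold changes had a median of 0.18, with 0 called by edgeR, DESeq2 or limma voom (1 higher and 0 lower at an unadjusted p below 0.05). Ednrb, the endothelin receptor that melanoblasts need, had 71.7, 69.3 and 64.9 CPM in WT1, WT2 and WT3 and 76.0 and 83.9 CPM in TG1 and TG2, a log2 fold change of 0.22 ± 0.09. Sox5, Zeb2 and Cited1, the next by p, had log2 fold changes of -0.61 ± 0.30, 0.44 ± 0.25 and 1.24 ± 0.72. Cited1, a coactivator linked to melanocytes, had 0.650, 0.0489 and 0.273 CPM in the wild-type corneas. It had 0.655 and 0.955 CPM in TG1 and TG2, and was lowest in WT2 and highest in TG2 like Tyr. Among wild-type corneas Cited1 reached the filter's minimum of 0.381 CPM in WT1 alone. Its entry into the test thus favoured a higher transgenic level. Sox10 and Pax3, factors that act with Mitf in melanocytes but not in the pigmented epithelia, were picked after their values were seen. Sox10 had 1.37, 0.440 and 0.774 CPM in the wild-type corneas, then 1.08 and 1.78 CPM in TG1 and TG2, groups that overlap. Pax3 was at 0 to 0.255 CPM in every library and was too low to test.

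Marker lists of tissues next to the cornea differed between libraries alongside the members, and their part in the differences was not tested. A list score is the mean log2(CPM + 0.5) of its genes minus the mean over the wild-type corneas, given in the order WT1, WT2, WT3, TG1, TG2; the pigment cell score was 0.47, -0.75, 0.28, 1.17 and 2.03. The retinal pigment epithelium list (9 of 12 tested) scored 0.45, -0.47, 0.02, 0.85 and 1.22, with 9 of 9 higher in transgenic corneas (median log2 fold change 1.51) and 7 of 9 genes lowest in WT2. Its summed level was 22.1 to 50.5 CPM over the wild-type corneas, against 43.1 to 65.9 CPM over the transgenic ones. Most of that sum was Mertk, at 32.9, 17.1 and 43.7 CPM in WT1, WT2 and WT3 and 23.9 and 42.4 CPM in TG1 and TG2. The log2 fold change of Mertk was 0.09 ± 0.50. Stra6, next in level on this pigment epithelium list, had 2.35, 2.99 and 3.01 CPM in the wild-type corneas. It had 5.82 and 5.83 CPM in TG1 and TG2, so WT2 was not its lowest library. Rpe65, the isomerase that defines that epithelium, had 1.19, 0.0979 and 0.865 CPM in the wild-type corneas, then 2.699 and 2.26 CPM in TG1 and TG2, so TG2 was not its highest library. The iris and ciliary body list (12 of 14 tested) scored 0.54, -0.38, -0.15, 0.57 and 0.69, with summed levels of 189 to 249.5 CPM and 187 to 217 CPM, and 9 of 12 higher. Within it Slc4a5, a bicarbonate transporter of the ciliary epithelium, had 11.6, 1.37 and 8.24 CPM in the wild-type corneas, then 20.9 and 26.3 CPM in TG1 and TG2, the order of Tyrp1; Best2 had 0.144, 0.147 and 0.0911 CPM and then 1.195 and 0.987 CPM. Rpe65, Slc4a5 and Best2 were picked after their values were seen. Best2 lay below the filter's minimum of 0.381 CPM in every wild-type cornea, so entry into the test favoured a higher transgenic level. Among wild-type corneas, Slc16a8 of the pigment epithelium list and Zic1 and Zic2 of the iris list reached that minimum in WT1 alone. The same limit holds for these genes. The most abundant genes of the iris list did not follow the members: Cdh3 had a log2 fold change of -0.34 ± 0.21 and Aqp4 one of -0.40 ± 0.58, with 8.10 CPM in TG1 against 19.1 to 28.2 CPM in the wild-type corneas. Des, a muscle filament gene of the same list and the other one lower in transgenic corneas, had a log2 fold change of -0.23 ± 0.31; it too was picked after its values were seen.

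The neural-crest melanocyte list (5 of 7 tested) scored 0.11, -0.23, 0.12, 0.24 and 0.43, with 5 of 5 higher, a median log2 fold change of 0.27 and summed levels of 254 to 323 CPM and 336 to 346 CPM. Its most abundant genes, Erbb3 and Kit, are also made by other cells of the cornea. The neural retina list (7 of 12 tested) scored 0.61, -0.56, -0.05, 0.45 and 0.52, so WT1 stood above both transgenic corneas, and its sums were 8.96 to 26.6 CPM and 19.2 to 20.8 CPM. Lens genes went the opposite way to the members between genotypes, with 0 of 9 higher and scores of 1.17, -0.49, -0.68, -1.17 and -1.53; sums were 22.7 to 113 CPM over the wild-type corneas, against 10.4 to 15.3 CPM over the transgenic ones. The trabecular meshwork list (5 of 7 tested) scored -0.01, -0.12, 0.14, 0.50 and 1.00, with sums of 385 to 428 CPM and 544 to 898 CPM. Schwann cell and nerve genes scored 0.23, -0.14, -0.09, 0.30 and 0.53. Corneal endothelium and keratocyte lists were higher in both transgenic corneas, at 0.36 and 0.50 and at 0.38 and 0.42, against at most 0.18 and 0.06 in wild-type ones. In these lists 6 of 7 and 8 of 9 tested genes were higher. Their most abundant genes were mixed. Log2 fold changes were 0.36 ± 0.10 for Col8a2 and -0.08 ± 0.10 for Slc4a11 of the endothelium. They were 0.26 ± 0.11 for Aldh1a1 and 0.07 ± 0.10 for Dcn of the keratocytes. The corneal epithelium list stayed between -0.04 and 0.07 in every library, and conjunctiva and limbus genes (-0.23 to 0.16) and blood and macrophage genes (-0.20 to 0.27) overlapped between genotypes. No list had a called member by edgeR. Krt12, the keratin that defines corneal epithelium, was at 32247 CPM or more in each library, which matched the tissue label.

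**Figure D5:**
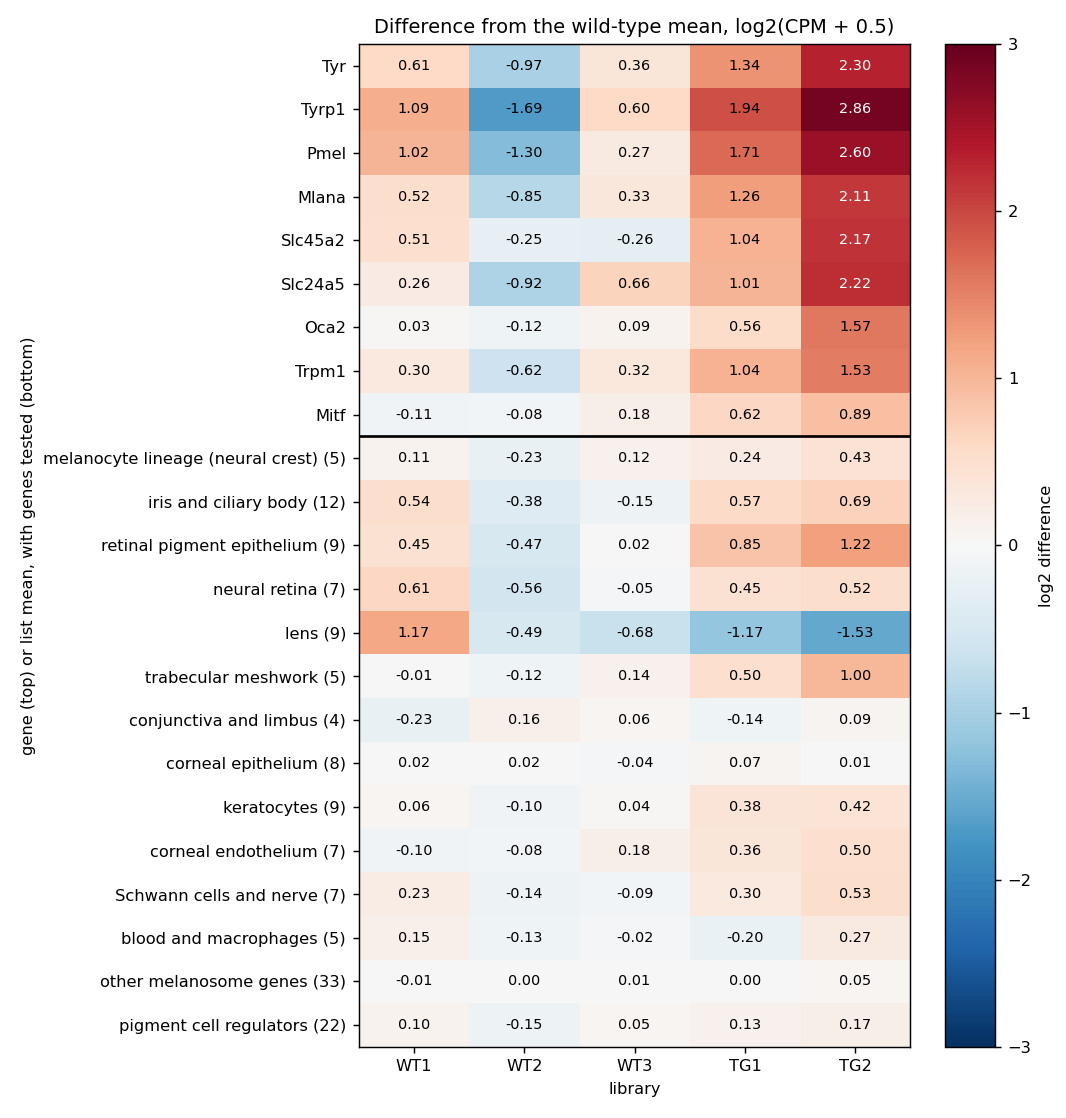
Difference from the wild-type mean in log2(CPM + 0.5) for the 9 pigment cell genes (top) and for the means of 14 other gene lists (bottom, genes tested in brackets) in each library. Most members run from blue in WT2 to red in TG2, and Mitf changes least, from -0.08 to 0.89. The retinal pigment epithelium list turns the same way, less steeply than most members. Other melanosome genes stay near 0 and lens genes turn from red in WT1 to blue in TG2.

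Genes with the most similar profile were sought among 11389 tested genes of at least 1 CPM on average, by the root mean square distance of centred log2(CPM + 0.5) values to the members' mean profile over the 5 libraries. The closest was Rgr, a retinal G protein-coupled receptor of the pigment epithelium, at a distance of 0.14 log2 units. It had 0.831, 0.0489 and 0.410 CPM in WT1, WT2 and WT3 and 1.504 and 3.47 CPM in TG1 and TG2. With a wild-type mean of 0.430 CPM, Rgr met the minimum of 1 CPM through its transgenic level. Next came Fbln7, a matrix protein, at 0.15, with 3.14, 0.685 and 2.19 CPM and then 5.05 and 7.96 CPM. Alpg, Ptgds, Slc6a15, Comp and Tmem72 were at 0.23 to 0.30. Ptgds, a prostaglandin D synthase, had 21.1, 6.36 and 17.1 CPM in the wild-type corneas, then 28.3 and 38.6 CPM in TG1 and TG2. Ptgds is also on the keratocyte list and so enters its score, with a log2 fold change of 1.16 ± 0.54. Among the members themselves Mlana was closest to the mean profile, at 0.07, and Tyrp1 farthest, at 0.65, its swings being wider. Members and other genes at low counts, Rgr among them, are pulled in by the pseudocount, so their swings read smaller on this scale.

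The isoform table named 10 isoforms of the 9 genes, of which 8 were tested. Another 26948 of its 55002 rows carry no gene name and were not matched to genes here, so reads of these genes, or of Dct, may lie in them. None of the 8 was called by edgeR, with an adjusted p of 1.00 each, and DESeq2 also called 0; at an unadjusted p below 0.05 there were 4 of 8, against 3.98% of 27110 isoforms. With adjustment 0% of the 27110 were called. The Slc45a2 isoform was among the 4 below 0.05, and it and the tested Oca2 isoform had few wild-type counts. Entry into the test thus favoured a higher transgenic level for the isoforms of these genes. For Tyr, Tyrp1 and Slc45a2 the 1 named isoform held all counts of the gene row in each library. The named Pmel isoform held 74.3%, 47.1% and 39.8% of the gene row in WT1, WT2 and WT3 and 86.6% and 89.3% in TG1 and TG2. Of the 2 named Mitf isoforms, 1 had 100.7 counts in TG2 and 0 in the other 4 libraries, and the other had 15.03, 0 and 15.01 counts in WT1, WT2 and WT3, 60.1 in TG1 and 0 in TG2. Together they held 18.3%, 0% and 18.3% of the Mitf gene row in wild-type and 44.2% and 49.8% in transgenic corneas. Estimated counts divide reads that fit several isoforms, so such splits at these low counts are uncertain.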

How the data were processed

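RNA of 5 whole corneas was sequenced. The values deposited by the authors are expected counts, that is estimated counts, per gene and per isoform, without normalization. The submitters' processing notes name build rn6, edgeR 3.28.0, DESeq2 1.26.0, RSEM 1.2.28, STAR 2.5.3a, fastp and FastQC, with no roles. The sources used here do not state strandedness. Expected counts were rounded, filtered with filterByExpr (minimum count 10), scaled by TMM and tested with edgeR 4.0.16 in R 4.3.3 (quasi-likelihood, robust, two-sided, Benjamini-Hochberg, threshold 0.05); DESeq2 1.42.0 and limma 3.58.1 voom were alternatives. The SE is the log2 fold change divided by the square root of F. The procedure was tested on simulated data, with changes set only in genes above a mean level that most members do not reach. That test therefore does not cover those members. Library totals were 20874010 to 30449675 counts; the floor of 3 counts is at most 0.147 CPM on the TMM-scaled totals used for CPM (20434891 for WT2). Binomial and Poisson intervals cover counting error only.

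Members and lists were chosen with earlier results of these data known. Genes were named by rule: all members, the 4 of smallest p in each of 2 pathway lists, and the 8 of most similar profile (mean of at least 1 CPM), 1 of which is not reported here. The 2 most abundant genes of each marker list were also set to be named, and are given only where a result turns on them.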

Additional observations from a re-analysis of the deposited data

How the results depend on the processing

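All 9 members kept a positive log2 fold change under each alternative that tested them; the filter at a mean of 1 CPM tested 7. No member was called by limma voom, by edgeR with other scaling, filter or robustness settings, with the replicate number as a block, or with any 1 library left out; DESeq2 called 1, Trpm1. The log2 fold change of Tyrp1 ran from 1.56 to 2.67 and that of Mitf from 0.70 to 0.99 with 1 library left out. Among the transporters Slc45a2 ran from 2.13 without TG2 to 5.01 without WT1, Oca2 from 1.14 without TG2 to 2.59 without TG1, and Slc24a5 from 1.27 without TG2 to 2.77 without WT3. Without TG1 or TG2 the lone transgenic library is assumed to vary like the wild-type ones. Over all genes edgeR called 1 gene; DESeq2 called 52, edgeR without a low-count filter 2 and edgeR with the replicate block 16, and leaving out 1 library gave 2 to 36. Deviations from the genotype mean had a correlation of 0.00 between the libraries of number 1 and -0.11 between those of number 2. With 2 transgenic libraries these deviations mirror each other, so the correlations cannot show or exclude pairing. Scores kept their order of libraries with pseudocounts of 0.1 and 2 CPM and without Mitf and Trpm1. Depth limits Slc45a2, Oca2, Mlana and Slc24a5, each with 26.2 counts or fewer in every wild-type library.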
